A study of Homo sapiens with 4 samples.

Results

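The genes described here are 10 members of the Hippo-YAP pathway, taken by name from the 20263 genes of the table: the angiomotins AMOT, AMOTL1 and AMOTL2, the kinases LATS1 and LATS2, the coactivators YAP1 and WWTR1, the transcription factor TEAD1, and the target genes CCN1 and CCN2. All 10 were found by their Ensembl IDs. They were selected on their names with their RB-1 against DMSO fold changes in these libraries already known, so their own differences are a description and carry no test. MDA-MB-231, an established human line from a triple-negative breast cancer that is known to carry a loss-of-function mutation of the Hippo regulator NF2, was kept for 24 h with RB-1 or with the solvent DMSO, 2 libraries each. The series title calls RB-1 a derivative of ribociclib, an inhibitor of CDK4 and CDK6, and the labels give no dose.

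In the Hippo pathway the LATS kinases phosphorylate YAP1 and its relative TAZ (encoded by WWTR1), which then stay in the cytoplasm or are degraded. When the kinases are inactive, YAP1 and TAZ enter the nucleus, bind TEAD factors and drive genes such as CCN1, CCN2 and ANKRD1. Angiomotins are scaffold proteins of cell junctions and actin filaments that bind YAP1 and TAZ and hold them outside the nucleus, and AMOTL2 and LATS2 are themselves YAP target genes. Much of this control acts on proteins, which were not measured here.

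TEAD factors recognise the sequence GGAATG, read as CATTCC on the other strand. Promoter windows of 250 bases before a gene's start, from RefSeq (GRCh38.p14), held 8 of the 10 genes, some with several starts. The motif, searched on both strands, was in 3 of their 11 windows, those of CCN2, YAP1 and one start of AMOTL2, and in 11.9% of all 35116 windows. Of the 18 other YAP and TAZ target genes listed for this work, 13 were in the table and 6 had it in a window. The windows below, of CCN2, ANKRD1 (another target gene, whose level is given further on) and the AMOTL2 start with a match, are examples. These YAP target genes stood near (CCN2) or below (ANKRD1, AMOTL2) their DMSO levels after RB-1. Other genes with a match lay on both sides. TGFB2 had a log2 fold change of -1.46 ± 0.27 SE and FOXF2, named after its values were seen, of 0.68 ± 0.31. Nothing about the motif and the level is read from the windows shown. Capitals mark the motif.
CCN2, chr6:131951373-131951622, minus strand: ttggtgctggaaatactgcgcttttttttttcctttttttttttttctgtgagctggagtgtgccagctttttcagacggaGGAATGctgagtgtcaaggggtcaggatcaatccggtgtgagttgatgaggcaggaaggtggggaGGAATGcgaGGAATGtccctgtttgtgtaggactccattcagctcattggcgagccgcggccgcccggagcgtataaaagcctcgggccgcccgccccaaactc
ANKRD1, chr10:90921088-90921337, minus strand: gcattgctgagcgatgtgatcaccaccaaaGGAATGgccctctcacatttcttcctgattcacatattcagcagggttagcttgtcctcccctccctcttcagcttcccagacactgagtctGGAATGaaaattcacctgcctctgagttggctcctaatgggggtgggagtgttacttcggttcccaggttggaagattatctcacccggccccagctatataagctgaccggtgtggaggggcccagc
AMOTL2, chr3:134374448-134374697, minus strand: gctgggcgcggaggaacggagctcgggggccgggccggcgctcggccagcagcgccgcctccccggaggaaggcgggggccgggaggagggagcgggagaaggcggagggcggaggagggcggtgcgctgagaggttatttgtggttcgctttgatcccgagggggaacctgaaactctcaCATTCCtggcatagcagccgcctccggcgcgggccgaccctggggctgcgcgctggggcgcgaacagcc
The CCN2 window held 3 copies, starting 169, 104 and 95 bases before the gene's start; 29 windows in the whole table (0.0826%) held 3 or more. ANKRD1 held 2 copies, and AMOTL2 held 1 on the opposite strand. A match describes the letters and does not show that a TEAD factor binds there.

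Library totals ran from 34122874 to 37754168 counts. In the fit over all 13612 genes tested, 1737 genes were higher and 2189 lower after RB-1 (edgeR's quasi-likelihood test, adjusted p under 0.05). Upper-quartile factors gave 2171 higher and 1830 lower, and library totals alone 2059 and 1400. Leaving out a library lowered these counts in 3 of 4 cases, to 768 and 1361 (without DMSO replicate 1), 522 and 1302 (DMSO replicate 2) and 655 and 1065 (RB-1 replicate 1), while leaving out RB-1 replicate 2 raised them to 1955 and 2443. Whether the 2 libraries of a group are separate cultures is not stated, so p-values measure the spread among these libraries alone, and that spread may be technical. Levels are CPM, counts scaled to TMM library sizes. The 10 mesenchymal and basal-like markers summed to between 9789 and 12112 CPM, although SPARC had only 20 to 33 counts, and the 10 luminal and epithelial ones to between 751 and 1064, carried by KRT8, KRT18 and KRT19 (165 to 406 CPM), with ESR1 at 4 to 23 counts and CDH1 at 0 to 2. The sums hide changes of single markers: of the mesenchymal ones CAV1 and ZEB1 fell (1.86-fold and 4.55-fold) and LGALS1 rose (3.55-fold), and of the luminal ones FOXA1, GATA3 and PGR fell (11.2-fold, 5.80-fold and 3.77-fold) and ERBB3 rose (2.15-fold), by the same test. Their part in the results below was not tested. Blood cell markers summed to at most 1.19 CPM (PTPRC, at most 0.631 CPM, fell) and endothelial ones to at most 13.0.

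All 10 genes passed the filter on low counts, AMOT through its DMSO libraries alone. Of the 10, 2 were past the threshold of that fit, AMOT and AMOTL2, both lower, and none was higher by edgeR or by DESeq2 (also none at an unadjusted p under 0.05). The background was 28.8% of all tested genes in either direction and 16.1% lower. In 7 of the 10 both RB-1 libraries lay below both DMSO libraries, which 34.3% of all tested genes did (69.7% were free of overlap in either direction). By DESeq2 3 were past the threshold and lower: AMOT, AMOTL2 and LATS1. Which genes were past it changed with the library left out. Without RB-1 replicate 2 the log2 fold changes were -3.70 (TEAD1), -1.24 (LATS1) and -0.66 (AMOTL2). Nothing is read from these counts, because the genes were chosen with this contrast known. The median log2 fold change was -0.31, against 0.01 over all tested genes.

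AMOT (ENSG00000126016), the founding angiomotin, was the gene of the 10 that differed most. It had 356 and 237 counts in DMSO replicates 1 and 2 and 0 counts in both RB-1 libraries. Its level in DMSO was 8.72 ± 2.10 CPM (SD, n = 2). Against a floor of 3 counts over both RB-1 libraries, which allows up to 0.0399 CPM, AMOT was at least 218-fold lower, a bound that covers counting error only. The count table alone cannot tell a loss of the transcript from reads that were not assigned to the gene. Among genes averaging 100 counts or more, those whose log2 CPM over the 4 libraries lay nearest to AMOT's were SPANXA2 and SPANXA1 (near-identical copies whose counts are uncertain), ENSG00000283515 (which has no symbol), ZNF521 and the read-through gene CORO7-PAM16. Their root mean square difference from AMOT ran from 0.26 to 0.72 on the log2 scale. By this choice they share a near absence of counts in RB-1, with at most 5 in either library. In bulk RNA, fewer cells with a transcript and less of it per cell cannot be told apart.

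AMOTL2 (ENSG00000114019), a paralogue of AMOT, was present throughout. It stood at 314 and 304 CPM in DMSO replicates 1 and 2 and at 196 and 175 in RB-1 replicates 1 and 2. The groups did not overlap, and libraries of one group lay close together beside the difference between groups. The log2 fold change was -0.74 ± 0.22 SE, or 1.67-fold lower. It kept its direction in all 11 alternative settings, between -0.82 and -0.55, but was past the threshold in only 5 of them. It missed the threshold with upper-quartile factors (-0.63) and with library totals alone (-0.55). With single libraries left out the log2 fold change ran from -0.82 to -0.66. With offsets for transcript length and GC content, which remove from each library what follows these properties across genes, the log2 fold change was -0.76.

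AMOTL1 (ENSG00000166025) was at 175 and 182 CPM in DMSO and at 124 and 153 in RB-1. Both RB-1 libraries lay below DMSO, with a log2 fold change of -0.36 ± 0.24 SE. The length and GC offsets turned its direction to 0.18. Per kilobase of transcript, the DMSO order within the family was AMOTL2 at 68.4 ± 1.65, AMOTL1 at 19.9 ± 0.53 and AMOT at 1.19 ± 0.29 CPM per kb (SD, n = 2), with no overlap between neighbours. AMOT thus made up 1.54% and 1.12% of the summed angiomotin level in the DMSO libraries. The sum of all 3 was 90.4 and 88.4 CPM per kb in DMSO and 57.1 and 55.7 in RB-1, and most of the difference was in AMOTL2.

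LATS1 (ENSG00000131023), a kinase that phosphorylates YAP1 and TAZ, stood at 44.2 and 45.9 CPM in DMSO and at 19.1 and 30.3 in RB-1. The groups did not overlap, but the RB-1 libraries differed 1.59-fold from each other. Its log2 fold change was -0.87 ± 0.31 SE, and -1.24 without RB-1 replicate 2 against -0.57 without RB-1 replicate 1. It was not past the threshold in the main fit but was in 3 of 11 alternative settings, DESeq2 and the replicate term among them. With the length and GC offsets it was -0.08. LATS2 (ENSG00000150457), the paralogous kinase, stood at 52.3 and 66.1 CPM in DMSO and at 48.3 and 51.1 in RB-1. Its log2 fold change, -0.25 ± 0.27 SE, was smaller than its error. The lower DMSO library lay only just above the RB-1 libraries, and without DMSO replicate 2 the value was -0.05.

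YAP1 (ENSG00000137693), the transcriptional coactivator, was at 220 and 176 CPM in DMSO and at 111 and 243 in RB-1. The RB-1 libraries fell on either side of DMSO, one below both DMSO libraries and the other above both. The log2 fold change of -0.16 ± 0.35 SE is the mean of that split: it was -0.84 without RB-1 replicate 2 and 0.30 without RB-1 replicate 1. Library totals alone (0.03), the length and GC offsets (0.29) and leaving out DMSO replicate 1 (0.01) also turned its sign. WWTR1 (ENSG00000018408), which encodes TAZ, was at 167 and 163 CPM in DMSO and at 147 and 191 in RB-1. It split in the same order, with a log2 fold change of 0.04 ± 0.24 SE that was -0.16 without RB-1 replicate 2 and 0.59 with the length and GC offsets.

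TEAD1 (ENSG00000187079), a DNA-binding partner of YAP1 and TAZ, had the widest gap between RB-1 libraries among the 9 genes with counts in both. It stood at 398 and 331 CPM in DMSO and at 28.1 and 182 in RB-1. Both RB-1 libraries were below DMSO, replicate 1 far below and replicate 2 at a level between. The log2 fold change was -1.79 ± 1.05 SE, and it was -3.70 without RB-1 replicate 2 and -0.99 without RB-1 replicate 1. The 6.49-fold gap between the RB-1 libraries was matched or exceeded, in either direction, by 28 of 11480 genes averaging 100 counts or more (0.244%), a count made after the gap was seen. With the length and GC offsets TEAD1 was at -1.07.

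**Figure D1:**
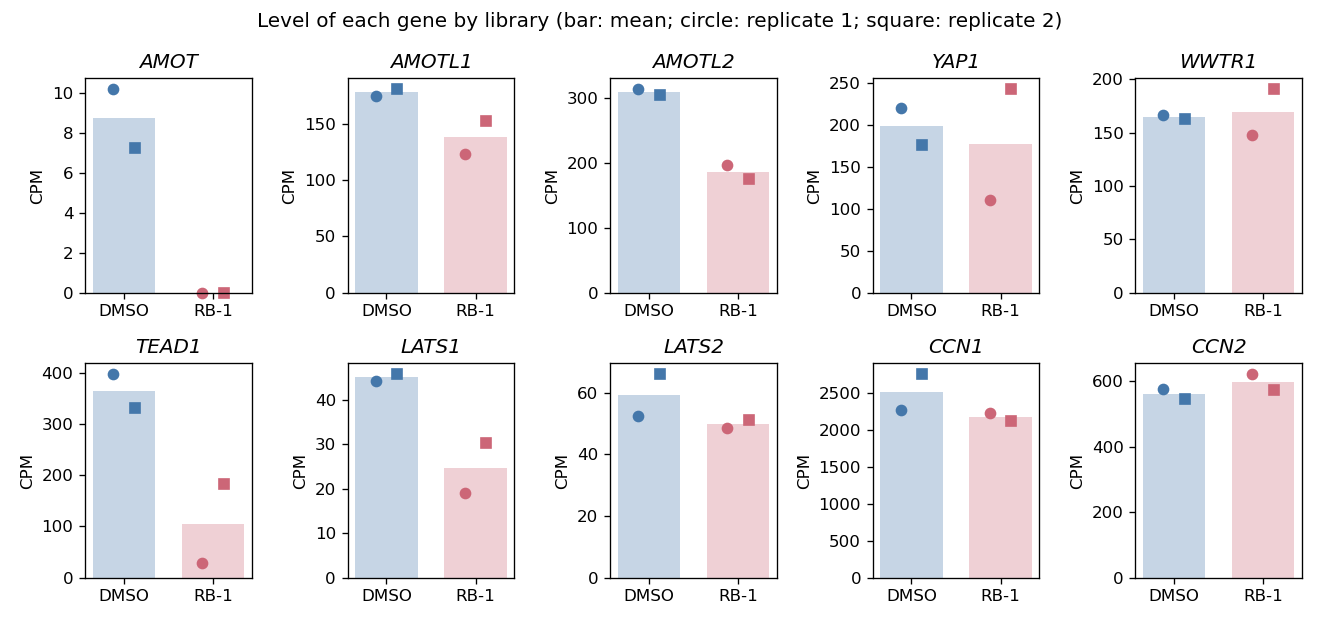
Level of each of the 10 genes in CPM (vertical axes, each from 0) in the DMSO and RB-1 libraries, with bars at the mean of 2 libraries, circles for replicate 1 and squares for replicate 2. AMOT is at 0 in both RB-1 libraries, the RB-1 points of TEAD1 (28.1 and 182 CPM) and YAP1 (111 and 243) lie far apart, and CCN1 and CCN2 stay near their DMSO levels.

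CCN1 (ENSG00000142871; also CYR61), a secreted matricellular protein and standard YAP target, was the most abundant of the 10 genes per kilobase. It stood at 2273 and 2770 CPM in DMSO and at 2238 and 2127 in RB-1. The RB-1 libraries lay just under the lower DMSO library, with a log2 fold change of -0.21 ± 0.22 SE that ran from -0.0033 with library totals alone to -0.42 with the length and GC offsets. It was -0.34 without DMSO replicate 1 and -0.04 without DMSO replicate 2. CCN2 (ENSG00000118523; also CTGF), a connective tissue growth factor and the gene with 3 motif copies above, stood at 575 and 547 CPM in DMSO and at 624 and 573 in RB-1. Its groups overlapped, and its log2 fold change was 0.09 ± 0.22 SE, with -0.14 under the length and GC offsets. Both differences were smaller than their errors, which does not show that the levels were equal.

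Per kilobase, the order of the 10 genes in DMSO was CCN1 (1101 CPM per kb), CCN2 (240.0), AMOTL2 (68.4), TEAD1 (43.0), YAP1 (36.7), WWTR1 (32.8), AMOTL1 (19.9), LATS2 (10.7), LATS1 (5.99) and AMOT (1.19). YAP1 had an SD of 5.77 and TEAD1 of 5.61 there, so TEAD1 overlapped YAP1, and YAP1 overlapped WWTR1. In RB-1 TEAD1 stood at 12.4 ± 12.9 CPM per kb (SD, n = 2), and the spread of YAP1 (32.8 ± 17.3) took in those of AMOTL2 (41.0 ± 3.32) and WWTR1 (33.7 ± 6.17). Lengths are those of the longest protein-coding transcript in GENCODE release 29, which need not be the isoform these cells use.

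Fold changes in these libraries ran with transcript length, and so did the gap between the RB-1 libraries. Of the 10 genes, 6 belong to the quartile of tested genes with the longest transcripts (over 5193 bases): AMOT, AMOTL1, LATS1, LATS2, TEAD1 and YAP1. That quartile of 3399 genes had a median log2 fold change of -0.47, with 1069 genes lower and 178 higher. In it RB-1 replicate 2 lay above replicate 1 by a median of 0.33 on the log2 scale. In the quartile with the shortest transcripts the medians were 0.47 and -0.35. CCN1 and CCN2, the shortest of the 10 at 2.29 and 2.34 kb, belong to the second quartile, with a median fold change of 0.13. The offsets take out any difference that follows length or GC content, whatever its source. Under them AMOTL2 (-0.76, lower) and WWTR1 (0.59, higher) were past the threshold, and LATS1 (-0.08) was close to 0. TEAD1 (-1.07) and CCN1 (-0.42) stood lower and YAP1 (0.29) higher without passing it. These log2 fold changes belong to genes chosen with this contrast known and carry no test. The offsets cannot move AMOT's counts of 0, so they say nothing of AMOT. How much of each gene's difference goes with length for technical reasons was not tested.

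**Figure D2:**
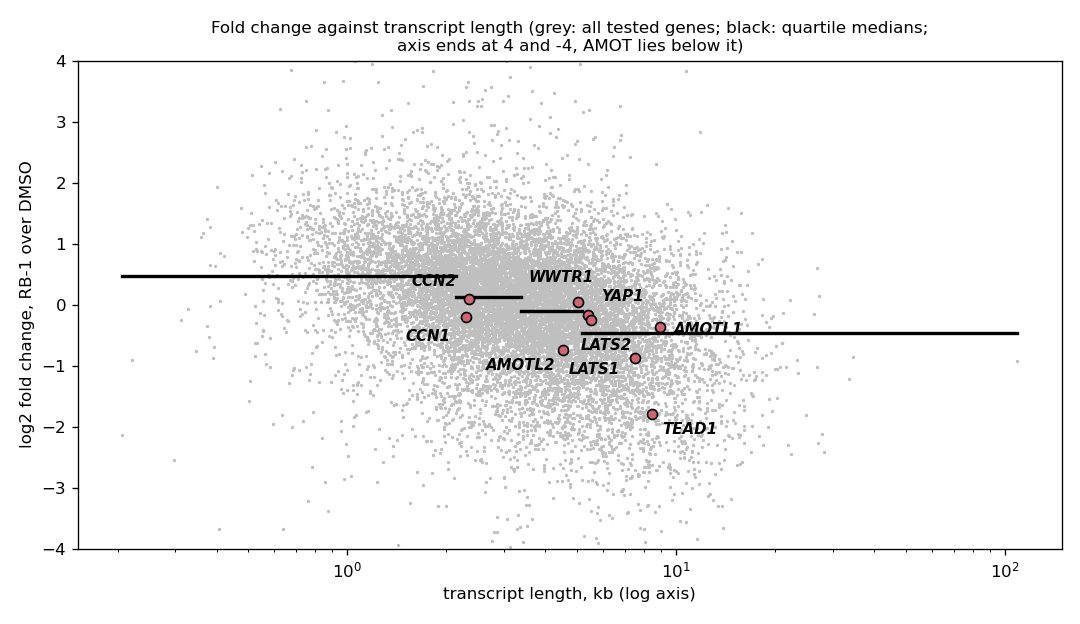
Log2 fold change, RB-1 over DMSO (vertical axis), against transcript length in kb (log horizontal axis) for tested genes in grey, quartile medians as black lines and 9 of the 10 genes as red points. The axis ends at 4 and -4, so 108 genes, AMOT among them, are not drawn; TEAD1 (-1.79) and LATS1 (-0.87) lie below the median of the longest quartile (-0.47), while CCN1 and CCN2 lie among the shorter transcripts near 0.

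**Figure D3:**
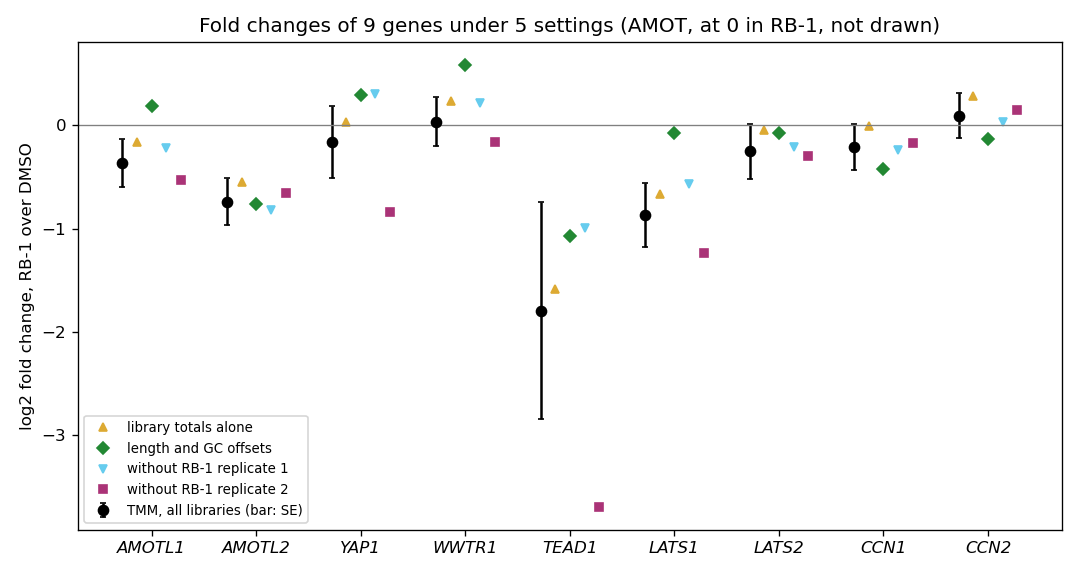
Log2 fold change, RB-1 over DMSO (vertical axis), of 9 genes under 5 settings; black points carry the SE. TEAD1 runs from -3.70 to -0.99 and YAP1 from -0.84 to 0.30 between the settings that leave out an RB-1 library, while AMOTL2 stays between -0.82 and -0.55.

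The other genes of the pathway were taken from 5 lists. These were also chosen with earlier results of these data known, and in each up to 4 genes are named for their smallest p. Their counts and p-values describe these libraries and are not independent tests. Among 35 Hippo kinases and upstream regulators, 7 fell, 28 did not pass and none rose (none by DESeq2 either, nor at an unadjusted p under 0.05), and the median log2 fold change was -0.58. Here and below a gene fell or rose where edgeR's adjusted p was under 0.05, as 16.1% and 12.8% of all tested genes did. Among the 3399 genes of the longest quartile, 1069 fell and 178 rose. Of the 7 kinases and regulators that fell 4 belong to that quartile, as do 14 of the 28 that did not pass. The number of this list that fell changed with the library left out, and under the length and GC offsets 6 fell and 7 rose. The atypical cadherins FAT1 and FAT4, which act upstream of the pathway, gave the smallest p. FAT1 went from 713 and 609 CPM to 146 and 143 (log2 fold change -2.19 ± 0.23 SE, edgeR adjusted p = 0.00034), and FAT4 from 72.0 and 63.8 to 11.3 and 16.9 (-2.27 ± 0.31, edgeR adjusted p = 0.00093). In both, all RB-1 libraries lay far below DMSO; the offsets gave -1.24 and -1.25. TAOK1, a kinase that activates the Hippo kinases, fell by 1.70 on the log2 scale (adjusted p = 0.00697), by 0.63 with the offsets and by 2.34 with RB-1 replicate 2 left out. SLMAP, which brings the phosphatase complex STRIPAK to the Hippo kinases and so opposes them, fell by 1.32 (adjusted p = 0.0062), but did not pass without DMSO replicate 1 (-1.15, adjusted p = 0.0603) or with the offsets (-0.53, adjusted p = 0.0888). The core kinases and their partners did not pass. STK3 was at -0.48 ± 0.33 and STK4 at -0.61 ± 0.29, the scaffold SAV1 at 0.30 ± 0.24 (14.9% of its exon bases overlap ATL1 on the other strand), the LATS cofactor MOB1A at 0.43 ± 0.23, and NF2 at -0.69 ± 0.31. With RB-1 replicate 2 left out STK4 passed (-0.98, adjusted p = 0.033). With the offsets SAV1 (0.58, adjusted p = 0.0433) and MOB1A (0.95, adjusted p = 0.0127) did.

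Of 23 partners of angiomotins at junctions or in protein turnover, 10 fell, 13 did not pass and none rose (3 were higher at an unadjusted p under 0.05, and none by DESeq2), with a median of -0.69. Leaving out DMSO replicate 1 left 6 that fell and leaving out RB-1 replicate 1 left 5, and with the offsets 7 fell and 3 rose. TJP1, the tight junction scaffold ZO-1, stood at 189 and 211 CPM in DMSO and at 33.6 and 45.2 in RB-1 (-2.34 ± 0.26 SE, edgeR adjusted p = 0.000421). PALS1, a scaffold of the Crumbs polarity complex, went from 192 ± 10.8 to 56.5 ± 17.1 CPM (SD, n = 2 each; log2 fold change -1.77 ± 0.28 SE, edgeR adjusted p = 0.00185). RB-1 lay far below DMSO for both, also with the offsets (-1.69 and -1.16). USP9X, a deubiquitinase that acts on angiomotins, fell (log2 fold change -2.02, adjusted p = 0.000834), as did NEDD4, a ubiquitin ligase of the family that targets them (-2.05, adjusted p = 0.00329). With the offsets these were -0.88 and -1.30. Among the 10 that fell, 8 belong to the longest quartile, as do 8 of the 13 that did not pass.

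TEAD1's paralogues did not move together. Of 7 TEAD and cofactor genes 6 were tested, 2 fell, 4 did not pass and none rose (none by DESeq2 or at an unadjusted p under 0.05), with a median of 0.10. Those that fell numbered 0 when DMSO replicate 2 was left out and 1 when RB-1 replicate 1 was, and 1 by DESeq2. TEAD4 stood at 68.4 and 69.6 CPM in DMSO and at 32.9 and 24.0 in RB-1 (-1.28 ± 0.28 SE, edgeR adjusted p = 0.00871); without DMSO replicate 2 the adjusted p was 0.0601. Its transcript, at 1.69 kb, is short, and the offsets moved it further down, to -1.82. VGLL2, a TEAD cofactor of at most 1.89 CPM, fell (-2.05, adjusted p = 0.0252), without passing when DMSO replicate 2 (-1.50, adjusted p = 0.169) or RB-1 replicate 1 (-1.58, 0.157) was left out, or by DESeq2 (-2.07, 0.0535). TEAD2 (0.26 ± 0.28; 10.7% of exon bases shared with CD37), TEAD3 (0.42 ± 0.25), VGLL3 (0.11 ± 0.39) and VGLL4 (0.08 ± 0.28; 22.1% shared with ATG7) did not pass, and VGLL1 had 0 counts in every library. VGLL3 passed with the offsets (0.98, adjusted p = 0.0344).

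Of 18 YAP and TAZ target genes other than the members, 8 fell, 1 rose and 9 did not pass, with a median of -0.39. Those that fell numbered 5, 3 and 5 when a DMSO library (replicate 1, then 2) or RB-1 replicate 1 was left out, 5 with library totals alone and 4 with the offsets. The rise, of GADD45A (1.15 ± 0.27, adjusted p = 0.0116; named after its values were seen), was lost when either DMSO library was left out. The target genes that fell had long transcripts: these 8 measured 5053 to 12985 bases, against a median of 2451 for the 9 that did not pass. MYOF, a membrane repair protein, went from 988 and 877 CPM to 359 and 399 (-1.30 ± 0.22 SE, edgeR adjusted p = 0.00291), and TGFB2, a TGF-beta ligand, from 160 and 190 to 52.7 and 74.5 (-1.46 ± 0.27, edgeR adjusted p = 0.00387). In both the groups stood clear of each other, and the offsets gave -0.84 and -0.93. TGFB2 shares 26.6% of its exon bases with TGFB2-OT1, so its counts are uncertain. CCDC80, a matrix protein, fell by 1.32 (adjusted p = 0.00506), but did not pass with the offsets (-0.26, adjusted p = 0.40) or without DMSO replicate 2 (-1.18, 0.054). ASAP1, a regulator of ARF GTPases and focal adhesions, fell by 1.57 (adjusted p = 0.00644), and did not pass without DMSO replicate 2 (-1.07, 0.054) or RB-1 replicate 1 (-1.34, 0.0824). PTPN14, a phosphatase that also binds YAP1, fell by 0.79 (adjusted p = 0.0359). It did not pass in 6 of 11 alternatives, and the offsets turned it to 0.10.

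ANKRD1, a muscle ankyrin repeat protein that like CCN1 and CCN2 is a common readout of YAP, is the gene with 2 motif copies above. It stood at 820 and 664 CPM in DMSO and at 486 and 546 in RB-1. Its groups did not overlap, yet it did not pass (-0.52 ± 0.23 SE, edgeR adjusted p = 0.107), also in none of 11 alternatives. The receptor tyrosine kinase AXL (-0.05 ± 0.22), the coagulation initiator F3 (-0.13 ± 0.22) and the kinase NUAK2 (-0.25 ± 0.37, at no more than 3.63 CPM) did not pass either. Of the 4 other CCN genes 2 were tested, and neither passed by edgeR or DESeq2, nor at an unadjusted p under 0.05: CCN3 at -0.47 ± 0.28 and CCN5, from 0.298 ± 0.097 CPM to 0.598 ± 0.091 after RB-1 (n = 2 each, SD).

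**Figure D4:**
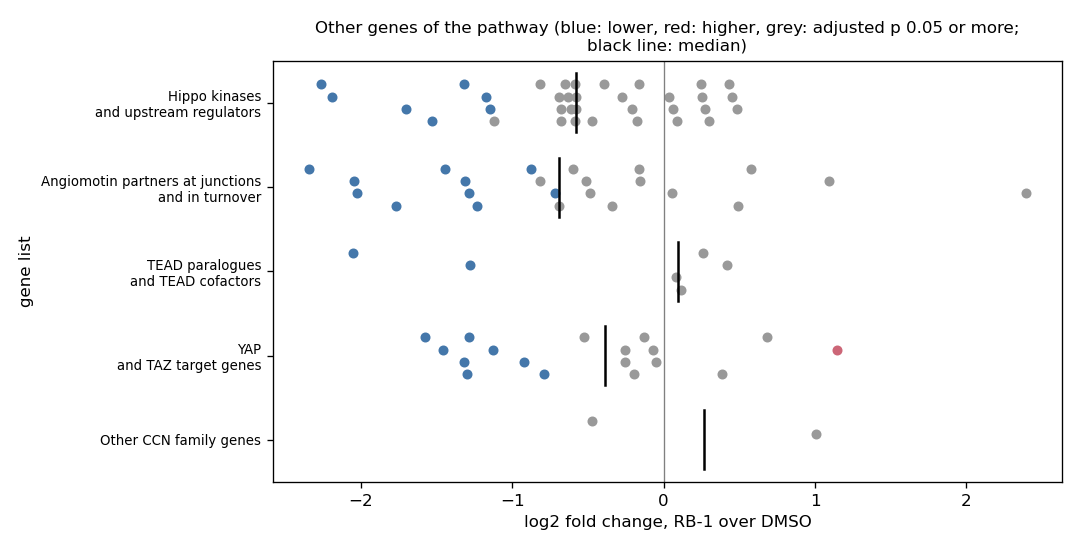
Log2 fold change, RB-1 over DMSO (horizontal axis), of the other pathway genes by list (vertical axis); blue points fell and red points rose at an adjusted p under 0.05, grey points did not pass and black lines are medians. The kinase and angiomotin partner lists have medians of -0.58 and -0.69, and the target list holds both points near -1.5 and points near 0.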

How the data were processed

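RNA from 4 libraries (2 DMSO, 2 RB-1) was counted per gene. The authors deposited raw counts, not normalised, for 20263 human gene IDs, with totals of 34122874 to 37754168 counts per library. Aligner, counter and strand use: not given in the sources used here. Reads on overlapping opposite-strand genes then cannot be told apart (shares: YAP1 9.97%, WWTR1 9.45% and CCN2 8.34% of exon bases in GENCODE release 29). The builds in the submitters' processing notes are of the mouse, while all IDs are human; the promoter coordinates printed are RefSeq's. Symbols matched 20148 IDs.

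The 13612 genes kept by filterByExpr were fitted with edgeR 4.0.16 (R 4.3.3; TMM, glmQLFit with robust estimation and without the legacy option, glmQLFTest, two-sided, Benjamini-Hochberg). SE is the log2 fold change divided by the square root of F. Transcript length and GC content came from GENCODE release 29; the offsets are splines of each library's deviations on both. Alternatives were RLE, upper-quartile and total scaling, no count filter, DESeq2 1.42.0, a replicate term, the offsets, and each library left out. On simulated counts for the 13612 genes the fit recovered 20.5% of 2-fold and 83.1% of 4-fold changes, and 4.61% of calls were false. Over the 3 simulations 195 genes were changed 2-fold and 195 were changed 4-fold. In the data far more genes, 3926, were past the threshold, so the shares recovered need not hold there. Named beside the 10 genes were a fixed panel of 15 pathway genes and, per list, the 4 of smallest p; genes outside this rule are named only as neighbours, as cell type markers or as marked. The members and lists were chosen with earlier results of these data known. Replicates were not duplicates (chi-square over its degrees of freedom: 257 for the DMSO pair, 128 for the RB-1 pair).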

Additional observations from a re-analysis of the deposited data

How the results depend on the processing

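With 2 libraries a group a gene that did not pass may still have changed by 2-fold. The count of genes lower was 1400 with library totals alone, and over the libraries left out in turn the counts ran from 522 to 1955 higher and from 1065 to 2443 lower. The median log2 fold change of all genes was 0.12 with upper-quartile factors and 0.21 with library totals alone, against 0.01. Of the 10 genes, 1 was past the threshold and lower with upper-quartile factors or library totals alone and 3 with DESeq2; with length and GC offsets 1 was higher, and 1 to 3 were lower without single libraries. With the offsets 7 kinase and regulator genes, 3 angiomotin partners and 1 TEAD gene were higher and 4 targets lower; 1 partner was higher with upper-quartile factors, 5 targets were lower with library totals alone and 1 TEAD gene was lower with DESeq2. Leaving out single libraries gave 4 to 12 kinase and regulator genes lower, 5 to 12 partners lower and 0 to 2 higher, 0 to 2 TEAD genes lower, and 3 to 8 targets lower and 0 to 1 higher. The cause was not tested.

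With the replicate block 1 partner was higher and 3 of the 10 genes lower. The numbers are not shown to pair the libraries: same-numbered libraries' deviations correlated at -0.096 across genes.

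Signs turned for TEAD2 (-0.024) and PTPN14 (0.096) with the offsets, F3 (0.069) with library totals alone, and AXL with upper-quartile factors (0.048) or library totals alone (0.14). Over the libraries left out in turn VGLL3 ran from -0.56 to 0.57, VGLL4 from -0.12 to 0.34 and AXL from -0.20 to 0.080. Of these, PTPN14 alone had passed.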
